A study of Mus musculus with 8 samples.

Results

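The genes described here are 10 members of the epidermal growth factor (EGF) family and its receptors, taken by name from the 45706 genes of the deposited tables. They are the ligand genes Areg, Ereg, Hbegf, Btc, Tgfa, Epgn and Nrg1 and the receptor genes Egfr, Erbb2 and Erbb3. They were chosen by name with the measured tuNK against spNK differences in expression already known, so their values are given as a description with no test. RNA was sequenced from natural killer (NK) cells sorted by magnetic beads and flow cytometry, with the sort markers not named. The mice were BALB/c and carried a subcutaneous tumour of CT26, a murine colorectal carcinoma line, made β2m-/- so that it lacks MHC class I. The 4 libraries titled spNK stand for splenic NK cells and the 4 titled tuNK for tumour-infiltrating NK cells. Age, sex, time after inoculation and whether spleens and tumours came from the same mice are not given in the labels used here. The tissue tag and source name contradict the title in each of the 8 samples, giving tumour for spNK and spleen for tuNK. Groups and directions below follow the titles, and exchanging the names would turn every direction without changing which libraries stand together. Nothing says that the libraries of a group came from separate animals, so spreads and p-values speak of these samples only and may be technical.

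EGF family ligands are made as membrane-anchored precursors, and surface proteases release them to act on neighbouring cells. They bind receptors of the ErbB family, which work as dimers with tyrosine kinase activity: amphiregulin (Areg), epiregulin (Ereg), HB-EGF (Hbegf), betacellulin (Btc), TGF-alpha (Tgfa) and epigen (Epgn) bind EGFR, while neuregulin 1 (Nrg1) binds ERBB3 and ERBB4. ERBB2 has no ligand of its own and serves as a partner of the others, and ERBB3 has a weak kinase and signals through its partners. The pathway is best known from epithelia and carcinomas, where ligands act on the cells that make them, and amphiregulin is also known as a repair factor made by lymphocytes.

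The estimated counts summed to 38745721 to 53886923 per library. NK markers were present in all libraries, and none of the 10 listed was at 0, but all 10 were lower in tuNK by the edgeR quasi-likelihood test (summed CPM, counts scaled to the same library size, of 11135 to 16107 in spNK and 3401 to 4857 in tuNK). Ncr1, which encodes NKp46, stood at 1469 ± 223 CPM in spNK and 312.5 ± 45.9 in tuNK (SD, n = 4 each). All 15 markers of fibroblasts and mesenchymal tumour cells were higher in tuNK, with sums of 93.2 to 149.5 CPM in spNK and 3249 to 4890 in tuNK, led by Col1a2, Fn1 and Sparc. Most of the spNK sum, 122.7 CPM on average, was Thy1, at 100.9 ± 19.8 CPM there. Of 9 epithelial tumour cell markers 4 were higher and 0 lower (1.42 to 11.1 CPM summed in spNK, 48.1 to 69.3 in tuNK), led by Krt18, Cdh17 and Krt20. Genes expressed across leukocytes were lower for 27 of 28, with a median log2 fold change of -1.69. In bulk RNA, fewer cells of a type and less RNA per cell cannot be told apart. The edgeR test called 69.6% of the 14006 genes tested, 35.6% higher and 34% lower in tuNK, so a call of a single gene is not unusual here. The part of RNA from other cells in the values below was not tested. A second scaling, to the leukocyte genes, is given beside some values. It moves every gene of a library by the same factor, so it cannot tell which cells the RNA of a gene came from. With that scaling 6 of the 10 NK markers were lower and 1 was higher. Over all genes tested, 6.13% were lower and 78.7% higher with it.

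Of the 10 genes, 7 were higher in every tuNK library than in any spNK library, 1 was lower, and 2 overlapped (Epgn and Egfr, which were at or near 0). Among all genes tested, 67.1% did not overlap by the same measure, 34.4% higher and 32.7% lower in tuNK. Since the members were chosen with this contrast in view, nothing is read from their count. A total of 8 of the 10 passed the filter on low counts, all but Epgn and Egfr.

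Hbegf, which encodes a heparin-binding ligand of EGFR, was the most abundant member in tuNK. Its level per transcript length, in TPM (transcript abundance scaled to the same total in every library), was 0.362, 0.242, 0.112 and 0.244 in spNK 1 to 4 and 150.2, 59.7, 44.9 and 56.4 in tuNK 1 to 4. All 4 tuNK libraries lay far above all 4 spNK libraries, and tuNK 1 stood well above the other tuNK libraries. In CPM scaled by the trimmed mean of M-values (TMM), Hbegf went from 0.469 ± 0.194 in spNK to 174.7 ± 90.3 in tuNK, a log2 fold change of 8.55 ± 0.49 (standard error of the fit). Without tuNK 1 the tuNK mean was 130.0 ± 15.9 CPM. In tuNK 1438 of 18890 genes with any TPM had a higher mean, against 13660 of 19030 in spNK. Hbegf (ENSMUSG00000024486) lies on chromosome 18, 36504927 to 36515805 on the minus strand of GRCm38, and no annotated gene overlaps it.

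Ereg, whose product epiregulin binds EGFR and ERBB4, came next. It had 0 counts in each spNK library and 4037, 2934, 2176 and 2404 counts in tuNK 1 to 4. That is 28.1, 16.2, 12.3 and 13.7 TPM, again highest in tuNK 1. No fold can be taken against 0, so a floor of 3 counts was set for each spNK library, equal to 0.0631 CPM on average. The fold over it was at least 1148, and at least 978 without tuNK 1. Such a floor covers counting error only. The only gene annotated over it is the antisense transcript Gm19610, which reached 18 counts.

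Areg, which encodes amphiregulin, was lower in level but even across libraries. It had 0 counts in each spNK library and 211, 177, 188 and 211 counts in tuNK 1 to 4, or 5.72, 3.79, 4.13 and 4.69 TPM. Its coefficient of variation over the tuNK libraries was 12.6% in CPM, against 30.5% for Ereg and 51.7% for Hbegf. The fold against the floor was at least 78.3, and at least 75.5 without tuNK 1. Markers of other lymphocytes and basophils known to make amphiregulin were looked at beside it. Of 8 markers of group 2 innate lymphoid cells, 4 were tested, of which 2 were higher and 2 lower. Over all genes tested, 35.6% were higher and 34% lower. These 8 markers summed to 64.8 to 82.4 CPM in spNK and 199.3 to 259.3 in tuNK. The higher sum in tuNK came from Il1rl1, the IL-33 receptor gene (6.56 ± 4.37 to 203.9 ± 27.7 CPM). Il2ra also rose, from 0.97 ± 0.447 to 3.44 ± 1.07 CPM. Gata3, the defining factor of those cells, fell from 46.5 ± 8.10 to 8.49 ± 2.21 CPM, and Rora from 20.4 ± 3.99 to 4.56 ± 0.756. After leukocyte scaling their log2 fold changes were -0.74 and -0.42, the latter not called. Il5, Il17rb and Hpgds were at 0 in all tuNK libraries, whereas Il13 was not at 0 in all of them. Neither Il13 nor those genes passed the filter on low counts, so no change is read from that. The 6 mast cell and basophil markers summed to 4.92 to 46.9 CPM in spNK and 0.792 to 3.34 in tuNK, where Fcer1a and Mcpt4 were at 0. Of 9 T cell and regulatory T cell markers 7 were lower and 0 higher (195.6 to 232.7 CPM summed in spNK, 77.8 to 123.1 in tuNK), and Cd3e was at 0 in tuNK. Fcer1a and Cd3e did not pass the filter on low counts either. Scaled to the leukocyte genes, 2 of these T cell markers were lower and 3 higher. Over all genes tested, 6.13% were lower and 78.7% higher on that scale. The part of all these cells in the Areg values was not tested.

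**Figure D1:**
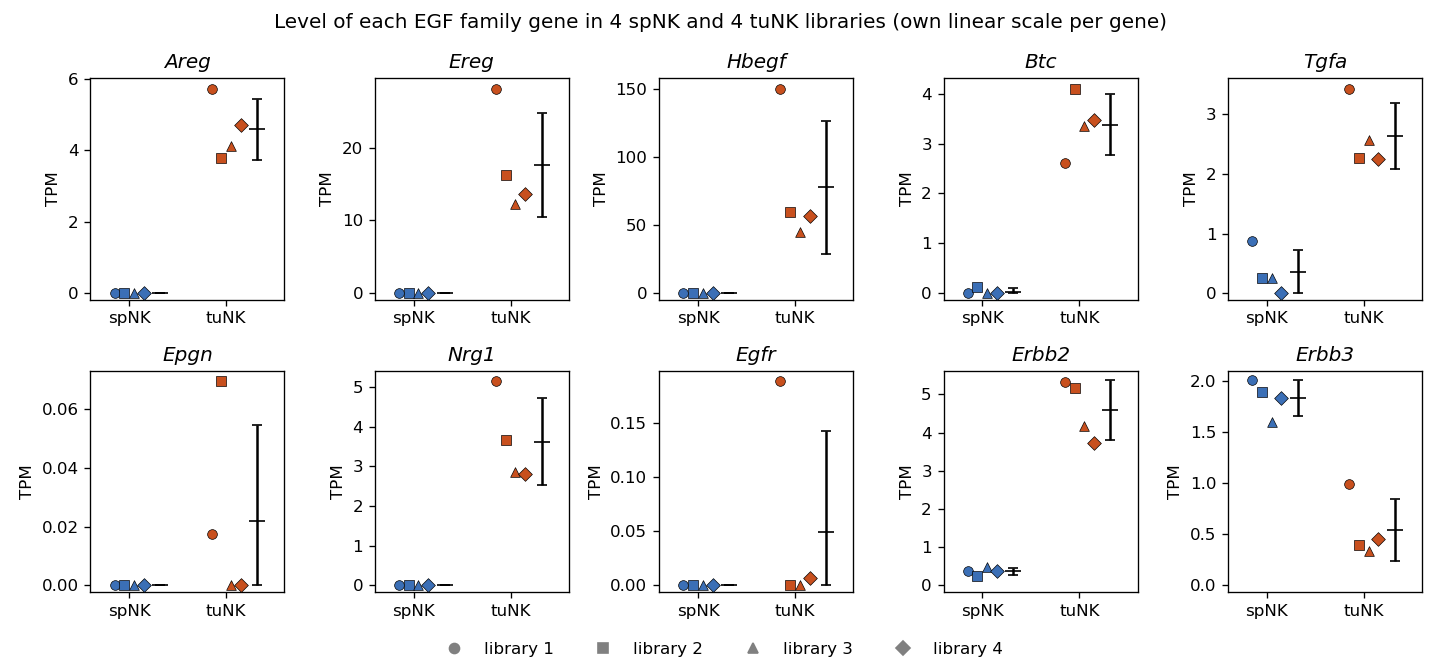
TPM of each of the 10 genes (y axis, linear, own scale per panel) in spNK and tuNK; each symbol is a library, and the bar at the right of a group is the mean with 1 SD, drawn no lower than 0. Hbegf, Ereg, Areg, Btc, Tgfa, Nrg1 and Erbb2 lie higher in all 4 tuNK libraries, Erbb3 lies lower, and Epgn and Egfr reach at most 0.0696 and 0.189 TPM.

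Nrg1, the neuregulin gene and the only listed ligand of ERBB3, had 0 counts in spNK and 358, 320, 244 and 238 counts in tuNK 1 to 4. In TPM it stood at 5.15, 3.65, 2.85 and 2.81, so every tuNK library was above every spNK library. Its fold against the floor was at least 114.9, and at least 104.3 without tuNK 1. Of the genes annotated within its span, Gm26578 and Gm22140, neither passed 26 counts.

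Btc, which encodes betacellulin, had 1, 18, 0 and 0 counts in spNK 1 to 4 and 255, 400, 403 and 416 in tuNK 1 to 4. Unlike Hbegf and Ereg, it was lowest in tuNK 1. In TPM the tuNK values were 2.61, 4.10, 3.35 and 3.47. The log2 fold change was 6.58 ± 0.88, but the spNK level rested on spNK 2, without which the fitted value was 9.80 on 1 remaining spNK count.

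Tgfa, which encodes TGF-alpha, had the lowest mean TPM of the 6 ligands present in tuNK, though in tuNK 1 it was above Btc. Its counts were 27, 53, 47 and 2 in spNK 1 to 4 and 418, 412, 290 and 384 in tuNK 1 to 4. In TPM it was at 0.874, 0.260, 0.261 and 0.0127 in spNK and at 3.43, 2.27, 2.57 and 2.25 in tuNK. The groups did not overlap, though spNK 4 was far below the other spNK libraries and spNK 1 was highest in TPM but not in counts. The log2 fold change was 3.85 ± 0.60.

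Epgn, the gene for epigen, was the exception among the ligands. It had 0 counts in every spNK library and in tuNK 3 and 4, with 1 count in tuNK 1 and 5 in tuNK 2. At this depth it was not detectable above the floor of 3 counts in 7 of the 8 libraries, and no fold is given.

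Epgn, Ereg, Areg and Btc lie together on chromosome 5 of GRCm38, between 91027464 and 91402994, and are the only 4 protein-coding genes that GENCODE M21 places in those 375.5 kb. Epgn (ENSMUSG00000035020, 91027464 to 91035215), Ereg (ENSMUSG00000029377, 91074622 to 91093646) and Areg (ENSMUSG00000029378, 91139599 to 91148432) are read from the plus strand and Btc (ENSMUSG00000082361, 91357261 to 91402994) from the minus strand. Along the cluster the mean tuNK level went from 0.0218 TPM at Epgn to 17.6 ± 7.17 at Ereg, 4.58 ± 0.845 at Areg and 3.38 ± 0.612 at Btc. In spNK only Btc had any count. The remaining ligands lie elsewhere, Tgfa on chromosome 6 (ENSMUSG00000029999, 86195223 to 86275719) and Nrg1 on chromosome 8 (ENSMUSG00000062991, 31814551 to 32884029).

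**Figure D2:**
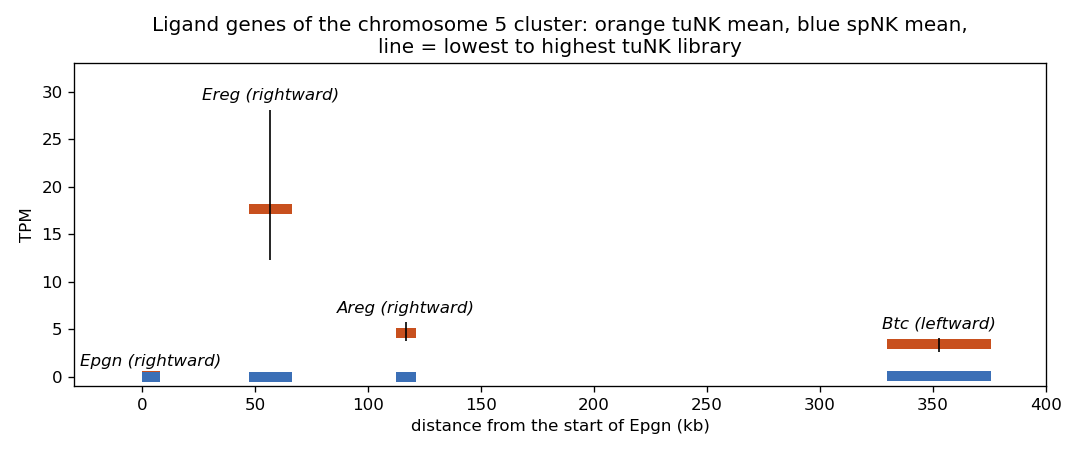
Mean TPM in tuNK (orange) and spNK (blue) of the 4 ligand genes of the chromosome 5 cluster (y axis) against distance from the start of Epgn in kb (x axis); bars span each gene and vertical lines run from the lowest to the highest tuNK library. Ereg, at 12.3 to 28.1 TPM, stands above Areg and Btc, while Epgn at the left end and all spNK bars lie at or close to 0.

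The sequences just before 3 of these genes are shown because neighbours in the cluster differed in level, Areg and Btc being present in tuNK and Epgn nearly absent. They are from RefSeq, GRCm38.p6, and belong to the reference strain, not to BALB/c. The table used holds 6 of the 10 members. Capitals mark matches, on either strand, to TGACGTCA (the cAMP response element), TGANTCA (the AP-1 site), TATAAA (the TATA box) and GGGCGG (the GC box). Matches to different motifs did not overlap in these windows. Each run ends at the base before the earlier of the starts annotated by RefSeq and GENCODE.
Areg, chr5:91139349-91139598, plus strand: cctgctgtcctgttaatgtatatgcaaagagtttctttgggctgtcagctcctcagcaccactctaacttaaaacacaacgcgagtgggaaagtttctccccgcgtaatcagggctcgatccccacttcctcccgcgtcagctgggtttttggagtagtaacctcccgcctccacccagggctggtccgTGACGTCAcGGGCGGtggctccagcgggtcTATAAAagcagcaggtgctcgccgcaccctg
Epgn, chr5:91027267-91027463, plus strand: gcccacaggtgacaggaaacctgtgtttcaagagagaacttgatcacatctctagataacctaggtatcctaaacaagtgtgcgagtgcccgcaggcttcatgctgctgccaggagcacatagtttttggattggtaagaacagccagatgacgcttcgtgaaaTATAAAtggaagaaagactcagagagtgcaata
Btc, chr5:91402995-91403244, minus strand: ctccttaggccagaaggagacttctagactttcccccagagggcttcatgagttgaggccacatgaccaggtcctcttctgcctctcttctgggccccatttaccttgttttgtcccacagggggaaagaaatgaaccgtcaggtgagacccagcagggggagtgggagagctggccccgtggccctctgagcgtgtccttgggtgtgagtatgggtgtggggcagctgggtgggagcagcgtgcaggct
The Areg stretch holds a cAMP response element that begins 61 bases before the RefSeq start, a GC box at 52 and a TATA box at 31. The Epgn stretch holds a TATA box 33 bases before the GENCODE start, and the Btc stretch holds none of the motifs searched. Over the 250 bases before the start of all 32851 promoters in the table, 1.55% held TGACGTCA, 6.75% TGANTCA, 12.4% TATAAA and 32.7% GGGCGG. The AP-1 letters were in none of the 6 members' windows, and TGACGTCA was in that of Areg alone. A match describes the letters only, and no binding was measured.

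Among the receptor genes, Egfr, the receptor of most of these ligands, was nearly absent. It had 0 counts in all spNK libraries and 19, 0, 0 and 3 counts in tuNK 1 to 4. Only tuNK 1 was above the floor of 3 counts, and no fold is given. Egfr (ENSMUSG00000020122) lies on chromosome 11, 16752203 to 16918158, plus strand.

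Erbb2, the ligandless partner receptor, was higher in tuNK. It stood at 0.390, 0.243, 0.474 and 0.388 TPM in spNK 1 to 4 and at 5.32, 5.17, 4.17 and 3.72 TPM in tuNK 1 to 4. The groups lay far apart, and the tuNK libraries varied little (11.8% of the mean in CPM). The log2 fold change was 3.94 ± 0.22, from 1.53 ± 0.429 to 23.4 ± 2.76 CPM. Erbb2 (ENSMUSG00000062312, chromosome 11, 98412470 to 98437716, plus strand) shares its last 9 bases with Mien1 on the other strand. Mien1 was at 100.8 ± 12.3 CPM in spNK and 53.4 ± 5.10 in tuNK, the opposite direction, which turned to 0.81 higher on the log2 scale after leukocyte scaling.

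Erbb3, the neuregulin receptor with a weak kinase, was the member that was lower in tuNK and the most abundant member in spNK. It had 2.01, 1.89, 1.6 and 1.83 TPM in spNK 1 to 4 and 0.994, 0.399, 0.332 and 0.452 in tuNK 1 to 4. The groups did not overlap, and tuNK 1 was again the highest of its group. The log2 fold change was -1.55 ± 0.29, from 9.64 ± 0.795 to 3.29 ± 1.5 CPM, beside the median of -1.69 of the leukocyte genes. When libraries were scaled to those leukocyte genes, the value for Erbb3 became 0.19 and the groups overlapped. On that scale its level was 5.38, 5.11, 5.45 and 5.29 CPM in spNK and 10.7, 3.97, 4.75 and 4.82 in tuNK, so only tuNK 1 stood above spNK. Erbb3 (ENSMUSG00000018166) lies on chromosome 10, 128567523 to 128589652, minus strand.

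Per length, the order in tuNK was Hbegf (77.8 TPM), Ereg (17.6), Erbb2 (4.59), Areg (4.58), Nrg1 (3.62), Btc (3.38), Tgfa (2.63), Erbb3 (0.544), Egfr (0.0490) and Epgn (0.0218). Each of Hbegf and Ereg was above the next gene in every library with no overlap of ranges. The ranges of neighbours overlapped from Erbb2 to Areg, Areg to Nrg1, Nrg1 to Btc and Btc to Tgfa. Within libraries Areg was above Nrg1 in all 4, whereas Erbb2 was above Areg in 2, Nrg1 above Btc in 1 and Btc above Tgfa in 3. Tgfa and Erbb3 were apart, Erbb3 and Egfr were apart, and Egfr and Epgn overlapped. In spNK the order was Erbb3 (1.83 TPM), Erbb2 (0.374), Tgfa (0.352), Hbegf (0.240) and Btc (0.0353), with the other 5 at 0. Only Erbb3 had a range apart from the next there, though Hbegf was above Btc in each of the 4 libraries. Hbegf made up 77.0, 66.5, 64.1 and 67.6% of the summed TPM of the 7 ligands in tuNK 1 to 4, and Ereg 14.4, 18.0, 17.5 and 16.5%. The ligand sum was 195.2, 89.8, 70.1 and 83.4 TPM in tuNK 1 to 4, against 6.51, 5.56, 4.50 and 4.17 TPM for the sum of the 3 receptors. In spNK the ligand sum of 0.257 to 1.25 TPM was below the receptor sum of 2.07 to 2.40 TPM in every library. The share of Erbb2 and Erbb3 also changed places, with 0.129 to 0.296 Erbb2 transcripts per Erbb3 transcript in spNK and 5.36 to 13.0 in tuNK.

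The tuNK libraries differed from each other by amounts that varied from gene to gene. Relative to the mean of the other 3, tuNK 1 held 2.37 times the Hbegf, 2.14 times the Erbb3, 1.69 times the Ereg and 1.41 times the Nrg1, in TMM-scaled CPM. Tgfa, Areg and Erbb2 were at 1.21, 1.15 and 1.05 times, and Btc was at 0.656 times. In the same library the mesenchymal markers summed to 1.44 times the mean of the other 3, the epithelial markers to 0.830 times and the NK markers to 0.777 times. The part of these in the member values was not tested, since 4 libraries are too few for a correlation.

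**Figure D3:**
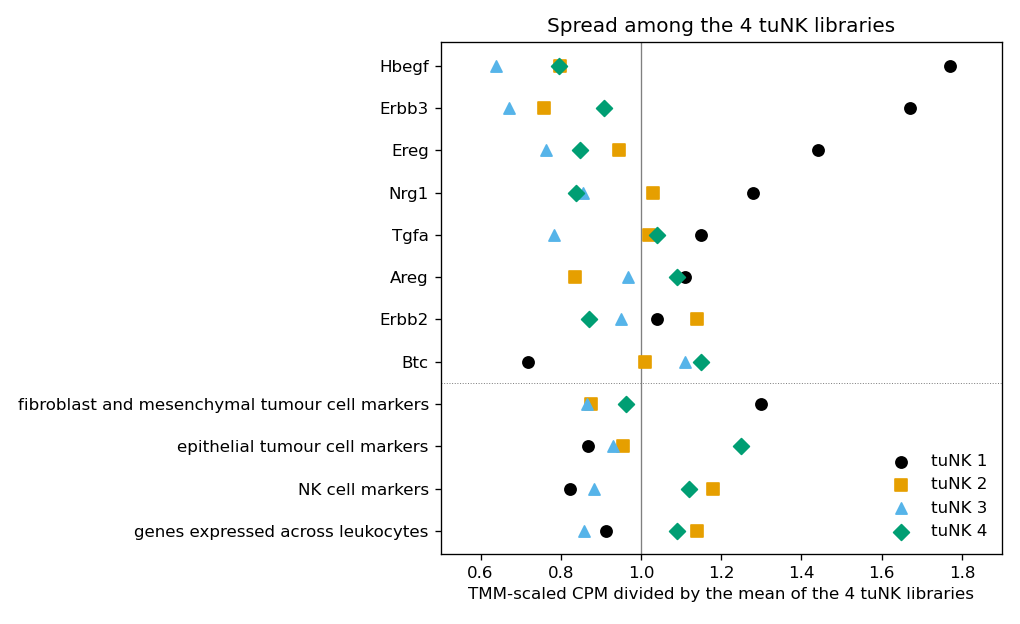
TMM-scaled CPM of each of 8 members and 4 marker sums (y axis) in each tuNK library, divided by the mean of the 4 (x axis); symbols mark libraries. The symbol of tuNK 1 lies far right for Hbegf, Erbb3 and Ereg (1.77, 1.67 and 1.44), right for the mesenchymal markers (1.30), and left for Btc (0.718) and NK markers (0.823).

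The other 5 genes of the family had at most 21 counts in any library. Nrg3 had 0 counts in all 8 libraries. Erbb4, the other neuregulin receptor, had 10 counts in spNK 1 and 0 in each other library. Egf, the founding ligand, had 0 to 21 counts per library, Nrg2 had 2 to 10, and Nrg4 had 13 in spNK 3, 17 in tuNK 3 and 0 in the remaining libraries. The 17 counts of Nrg4 came to 1.19 TPM, above the tuNK mean of Erbb3 (0.544 TPM), and the highest TPM of the other 4 in any library was 0.131. None of these 5 passed the filter on low counts.

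The pathway lists from here on were chosen with earlier results of these data known. Their named genes were taken by smallest adjusted p or, where said, after their values were seen. The adjusted p-values of these genes are therefore given as a description. Of 13 genes of ligand shedding, 11 were tested, and with TMM scaling 6 were higher in tuNK and 4 lower. Over all genes tested, 35.6% were higher and 34% lower with that scaling. The median log2 fold change of the shedding genes was 1.39, beside 0.02 over all genes tested. Scaled to leukocyte genes, 10 were higher and 0 lower, with a median of 3.08. On that scale 78.7% of all genes tested were higher and 6.13% lower, with a median of 1.74. Adam17, the main sheddase of Areg, Ereg, Hbegf and Tgfa, fell from 107 ± 9.63 to 42.7 ± 3.82 CPM (-1.32 ± 0.10, adjusted p = 8.08e-07). Adam10, the main sheddase of Btc, fell from 173 ± 9.07 to 79.4 ± 9.51 CPM (-1.13 ± 0.10, adjusted p = 2.33e-06). Both turned higher when scaled to leukocyte genes, by 0.40 and 0.57. Rhbdf1 and Rhbdf2 encode iRhom proteins, which carry ADAM17 to the surface. Rhbdf1 rose from 0.0903 ± 0.11 to 31.9 ± 4.05 CPM (8.44 ± 0.47, adjusted p = 1.74e-07) and Rhbdf2 from 4.82 ± 1.20 to 16.7 ± 2.18 CPM (1.80 ± 0.21, adjusted p = 1.98e-05). The spNK level of Rhbdf1 rested on spNK 4, without which it was 0.0373 ± 0.0356 CPM and the log2 fold change 9.52. The protease genes Adam15 and Adam9 rose from 1.29 ± 0.495 to 65.1 ± 7.85 CPM and from 8.71 ± 0.938 to 63.4 ± 8.74 CPM. These 4 rises stood beside the mesenchymal markers (3249 to 4890 CPM in tuNK), whose part in them was not tested.

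Of 30 genes that act next to the receptors, 17 were lower, 8 higher and 5 not called. Over all genes tested, 34% were lower and 35.6% higher. The median of the 30 was -0.41, beside 0.02 over all genes tested. Scaled to leukocyte genes, 24 were higher and 1 was lower, with a median of 1.33, beside 78.7% higher, 6.13% lower and a median of 1.74 over all genes tested. Grb2, the adaptor that links receptors to RAS, fell from 163 ± 8.42 to 82.4 ± 4.45 CPM (-0.98 ± 0.08, adjusted p = 1.12e-06), but was higher by 0.73 after leukocyte scaling. Stat5a (a transcription factor of cytokine receptors), Plcg2 (a phospholipase of immune cells) and Nck2 (an adaptor) changed by -2.0, -1.97 and -2.05, and by -0.27, -0.28 and -0.32 (not called) after that scaling. Src, the founding member of its kinase family, rose from 2.44 ± 0.340 to 44.6 ± 6.52 CPM (4.19 ± 0.16, adjusted p = 1.12e-08). Plcg1, the phospholipase that binds EGFR, rose from 5.24 ± 1.26 to 24.9 ± 3.18 CPM. Eps8, an EGFR substrate, and Gab1, a docking adaptor, were named after their values were seen. Eps8 rose from 0.504 ± 0.678 to 104 ± 13.1 CPM (adjusted p = 3.48e-05). Without spNK 3 its spNK mean was 0.182 ± 0.257 CPM and its log2 fold change 9.23, against 7.69 with it. Gab1 stood at 2.25 ± 0.972 CPM in spNK and had 0 counts in each tuNK library (adjusted p = 4.87e-05).

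Among 23 genes that restrain receptors or sort them for degradation, 22 were tested. Of these 7 were higher, 10 lower and 5 not called, beside 35.6% higher and 34% lower over all genes tested. The median of the 22 was -0.20, beside 0.02 over all genes. The higher count was 4 without tuNK 1 and 4 without spNK 3. After leukocyte scaling 19 were higher and 1 was lower, with a median of 1.53, beside 78.7% higher, 6.13% lower and a median of 1.74 over all genes tested. Lrig3, of a family of membrane proteins that act on ErbB receptors, fell from 3.79 ± 0.585 to 0.256 ± 0.0677 CPM (-3.87 ± 0.38, adjusted p = 5.9e-06). It was still lower after leukocyte scaling, by a smaller log2 fold change of -2.15. Socs5, of the suppressors of cytokine signalling that act on EGFR, rose from 24.7 ± 4.25 to 61.5 ± 5.01 CPM (1.32 ± 0.13, adjusted p = 6.19e-06). Its relative Socs4 fell by 1.42 (0.32 after leukocyte scaling, not called). The phosphatase genes Ptpn12 and Ptpn1 changed by -1.77 and -0.81 (-0.05, not called, and 0.91 after leukocyte scaling), and Epn1, an endocytic adaptor gene, by -0.85 (0.85 after that scaling).

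Errfi1 and Lrig1, both feedback inhibitors that EGFR signalling is known to induce, were named after their values were seen. Errfi1 had 12.4, 16.9, 11.8 and 19.6 CPM in spNK 1 to 4 and 860.7, 296.7, 208.4 and 209.0 CPM in tuNK 1 to 4. It rose by 4.70 ± 0.55 on the log2 scale (adjusted p = 9.19e-05), with tuNK 1 at 3.62 times the mean of the other 3 tuNK libraries. Its tuNK mean was 393.7 ± 314 CPM, and 238.0 ± 50.8 without tuNK 1, where the log2 fold change was 3.96. Lrig1 rose from 1.76 ± 1.63 to 70.1 ± 17.0 CPM (5.32 ± 0.66, adjusted p = 1.15e-04). Without spNK 3 its spNK mean was 0.987 ± 0.645 CPM and its log2 fold change 6.18. Egfr itself had 0 counts in all spNK libraries and 19, 0, 0 and 3 in tuNK 1 to 4. Any part of EGFR signalling in the rises of Errfi1 and Lrig1 was not tested.

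**Figure D4:**
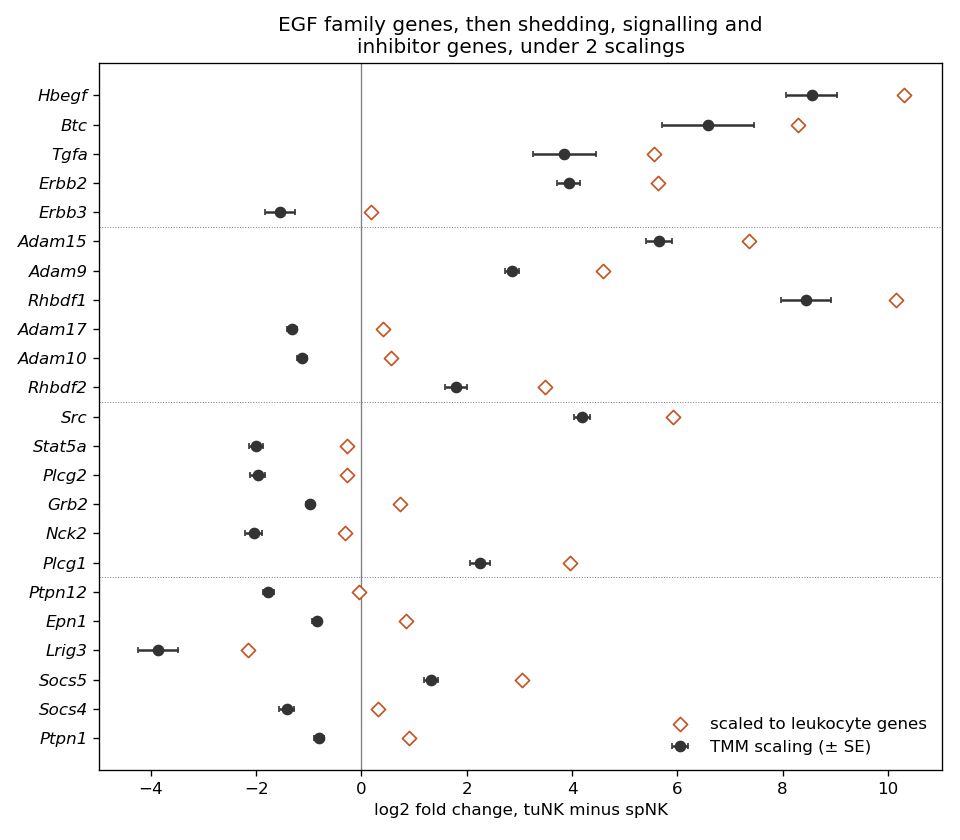
Log2 fold change, tuNK minus spNK (x axis), of the 5 members with counts in both groups and of 18 named shedding, signalling and inhibitor genes (y axis), with TMM scaling (filled, ± standard error) and scaled to the leukocyte genes (open). Erbb3, Adam17, Adam10, Grb2, Epn1, Socs4 and Ptpn1 lie left of 0 with the first scaling and right of it with the second, while Hbegf, Btc, Tgfa and Erbb2 lie right of 0 with both.

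The pattern of Areg over the 8 libraries was shared by many genes. By Pearson's r of log2(CPM + 1), given as a description over 8 libraries that fall into the 2 groups, the most alike of 9204 genes were Map1b, Amotl1, Irx1, Col6a1 and Irx5 (r of 0.9993 to 0.9999). Each was at or near 0 in spNK, and 580 genes had an r above 0.99. For Hbegf the most alike were Cp, Nppb, Espnl, Bdnf and Ogn (0.9989 to 0.9994), with 422 genes above 0.99. For Egfr the highest were Klf9, Utrn, Cebpz, Ddx21 and Tpr (0.9375 to 0.9755), which rest on the single library tuNK 1.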

How the data were processed

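Poly(A) RNA of sorted NK cells was sequenced as 4 spNK and 4 tuNK libraries, grouped by title. FastQC 0.11.9, STAR, Salmon and GRCm38 (mm10) are named in the submitters' processing notes. STAR and Salmon versions, annotation and strandedness were not given in the sources used here. Deposited by the authors were estimated counts (expected counts, not normalised, 7.9 to 8.82% of values per library not whole) and a second table of TPM, in which a gene's level is relative to its length and to all RNA of the library.

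Counts were rounded and tested with edgeR 4.0.16 in R 4.3.3 (filterByExpr, 14006 genes kept; TMM; robust quasi-likelihood F test; Benjamini-Hochberg over all genes tested; threshold 0.05). Standard errors are the fold change divided by the square root of F. Alternatives were other scalings (size factors, upper quartile, library size, 28 leukocyte genes), no filter or at least 1 CPM in 4 libraries, DESeq2 1.42.0, limma 3.58.1 (voom, and log2 TPM plus 1 or 0.1), a replicate block, leaving out each library, and, chosen after seeing the marker sums, leaving out spNK 3 and tuNK 1 together. The edgeR fit was run on simulated counts in which a small share of genes changed, equally in both directions. With 69.6% of tested genes called in the data, that run did not test the scaling under so broad a change. Of 171 list entries 1 was matched through the reference annotation. Members and lists were chosen with earlier results of these data known. All members, all other family genes, up to 6 genes per pathway list by adjusted p, the leading markers and the 5 genes most alike in pattern were named. Positions are from GENCODE M21, promoters from RefSeq. Genes without a promoter entry were Ereg, Hbegf, Nrg1 and Erbb3.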

Additional observations from a re-analysis of the deposited data

Results flagged for a closer look

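In a group of 4 libraries, a library was singled out where its gap to the nearest other library exceeded Dixon's critical share of the group's range. For normally distributed values chance gives this in about 1 of 20 groups. The genes examined were the members, the other family genes, the pathway genes named above, and Ncr1, Il1rl1, Gata3 and Mien1. Thy1, Rora and Il2ra were not examined. The genes examined made 73 such groups with any spread, those named after their values were seen included, and 9 met the rule. It is always met where every other library is at 0, as for Nrg4 and Erbb4, and Egfr in tuNK and Btc in spNK also lay near 0. The count of 9 is therefore not read against that rate. Hbegf was at 308.7 CPM in tuNK 1 and at 111.6 to 139.3 in the other tuNK libraries. Egfr was at 0.492 CPM in tuNK 1 and at 0 to 0.0766 in the others. Socs4 was at 19.2 CPM in tuNK 1 and at 14.8 to 15.4 in the others. Btc was at 0.32 CPM in spNK 2 and at 0 to 0.0233 in the others. Grb2 was at 150.5 CPM in spNK 3 and at 165.2 to 168.2 in the others. Errfi1 was at 860.7 CPM in tuNK 1 and at 208.4 to 296.7 in the others. Nrg4 was at 0.265 CPM in spNK 3 and at 0.432 CPM in tuNK 3, and Erbb4 at 0.233 CPM in spNK 1, with every other library of the group at 0.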

How the results depend on the processing

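In 7 of the 10 genes the tuNK libraries stayed above the spNK libraries under every scaling, on TPM and with each library left out. Leaving out a library could hardly create an overlap, and no scaling could for Areg, Ereg and Nrg1, with 0 counts in spNK. The members were chosen with this contrast known, so nothing is read from it. Scaling to the leukocyte genes, which moved the median of all genes by 1.72 on the log2 scale, turned Erbb3 (0.19), Adam17 (0.40), Adam10 (0.57), Grb2 (0.73), Epn1 (0.85), Socs4 (0.32), Ptpn1 (0.91) and Mien1 (0.81) higher, and left 0 members lower without overlap. It gave 11019 genes higher and 858 lower (92.8% of calls higher, against 51.1%), 10 and 0 for shedding, 24 and 1 for signalling and 19 and 1 for inhibitors. The count of inhibitor genes called higher, 7, was 4 by library size alone, 4 on log2 TPM plus 1 or 0.1, and 4 without spNK 3 and tuNK 1 together, and 4 to 6 with each library left out in turn. Library size alone and log2 TPM (offset 1 and 0.1) moved the median by -0.17, -0.23 and -0.24. On log2 TPM plus 1, which shrinks low values, the log2 fold changes were 5.82 for Hbegf, 2.07 for Btc, 1.45 for Tgfa, 2.02 for Erbb2 and -0.89 for Erbb3. No fold against the floor could be had on TPM, which keeps no depth. With the replicate block 9555 genes were called, against 9744 without it. Libraries with the same number deviated together little (r of 0.0139, 0.0601, 0.113 and -0.000314). Of the 4 spNK libraries, 2 correlated best with the tuNK library of their own number. Such low values cannot exclude that a number stands for the same mouse in both tissues, so pairing stayed unknown. Depth limits Epgn, Egfr and the other family genes.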
